A study of Papilio xuthus with 10 samples.

Results

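The egg of the swallowtail butterfly *Papilio xuthus* was set against the first-instar larva (L1) that hatches from it, over each gene that reached an RPKM of 5 in either library. RPKM is the number of reads at a gene divided by the gene's length and by the reads of the library, so that levels can be set against each other between genes and libraries. Of 15123 genes in the table, 9450 (62.5%) met this rule and are called members below. Among them, 8419 reached an RPKM of 5 in both libraries, 768 in the egg only and 263 in L1 only. The quantity described is the ratio of L1 to egg RPKM, and the 8 other libraries of the series were used to ask where the genes at both ends of this ratio were expressed later in life.

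Each stage had 1 library, 10 in all, which covered the egg, larvae of the first to the fifth instar (L1 to L5), and pupae and adults of both sexes. All libraries were made from whole bodies, and no treatment or strain is named. Eggs, L1 and L2 larvae were pooled within a library, and each later library came from a single animal. The sex of eggs and larvae was not given, and neither the age of the eggs nor the day within an instar is given in the sources used here. With 1 library per stage no difference between stages could be tested. Every ratio below compares 2 libraries and carries no variation between animals, and the intervals cover counting error only. The expression values of whole bodies do not separate fewer cells of a type from less RNA per cell. The identifiers in the table come with no gene names, and 0 of 15123 were found in the RefSeq gene table of the *P. xuthus* assembly Pxut_1.1. For this reason no marker gene could be used to check the stage labels, and at most 2 identifiers are printed for each direction.

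A moth or butterfly egg is laid with a store of maternal RNA made in the ovary, mostly by the nurse cells that are sisters of the oocyte. During embryogenesis this store is cleared while the embryo's own genes are switched on, and by the end of it a complete caterpillar, with its gut and cuticle, lies folded inside the shell. After hatching, L1 larvae feed, grow and moult, and the tissues that dominate a caterpillar are the gut, the fat body, the silk glands and the epidermis that secretes the cuticle. Larval tissues are broken down or remodelled in the pupa. The abdomen of an adult female is filled largely by ovaries and maturing eggs. These statements are background and were not measured here.

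The egg and L1 libraries differed by small, graded amounts. The median ratio of L1 to egg over the 9450 members was 0.833, or -0.26 on the log2 scale, with quartiles of -0.66 and 0.14. The lowest 1% of members lay beyond 2.78-fold lower in L1, and the highest 1% beyond 2.19-fold higher. In all, 3104 members were higher in L1 and 6346 (67.2%) were lower. No member was 4-fold or more higher in L1, where the largest ratio was 3.97, and 7 were 4-fold or more lower, down to 8.21-fold. These 7 genes had between 28 and 245 reads in the egg and L1 together, and none had a 95% counting interval of the ratio that lay wholly past 4-fold. Among the 6263 members with 1000 reads or more in the pair, the most extreme ratios were 2.89-fold higher and 3.66-fold lower, and 0 genes reached 4-fold. No member was at 0 reads in either library. The lowest egg value of a member was 1.32 RPKM and the lowest L1 value 0.646 RPKM, and 3 members were below 1 RPKM in L1 and none in the egg.

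**Figure D1:**
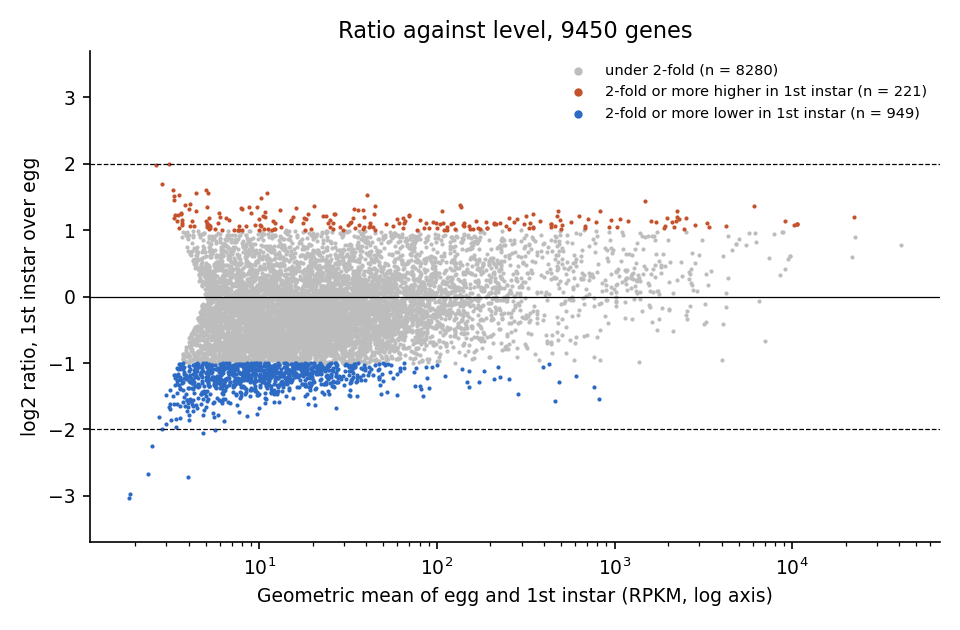
Each point is 1 of the 9450 members. The horizontal axis is the geometric mean of its egg and L1 RPKM on a log scale and the vertical axis the log2 ratio of L1 (1st instar) to egg, with dashed lines at 4-fold. Genes 2-fold or more apart form a thin fringe at all levels, and the few genes past the lower dashed line have low levels.

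Counting error was small for most members but not negligible at the borders of 2-fold. The totals read back from the table were 34949416 reads for the egg and 34417545 for L1, and 3 reads at a gene of 1 kb were worth 0.0858 RPKM in the egg and 0.0872 in L1. Members had a median of 1612 reads in the pair and at least 28. The median standard error of the log2 ratio from counting alone was 0.0737, against a standard deviation of the ratio over genes of 0.60. In 7689 members (81.4%) the counting interval of the ratio excluded 1. This count says only that the libraries differed beyond counting error, since animals were not replicated. The counting interval lay wholly past 2-fold for 109 of the 221 genes (2.34% of members) that were 2-fold or more higher in L1 and for 412 of the 949 (10.0%) that were 2-fold or more lower.

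The same rule was applied to other pairs of libraries, which are set beside this one as values and were not compared by a test. The interquartile range of the log2 ratio was 0.80 between egg and L1, 2.39 between L1 and L2 (9198 genes), and 0.63 between female and male pupae (9462 genes). A difference of 4-fold or more was found in 0.0741% of genes between egg and L1, in 32.1% between L1 and L2, and in 7.41% between the pupae. Genes with 0 reads in one library of the pair numbered 0, 93 and 108, respectively. Spearman's rho over genes was 0.931 for egg and L1, 0.542 for L1 and L2, and 0.844 for the pupae. At 2-fold in either direction the shares were 61.5% for L1 and L2 and 13.7% for the pupae. The median log2 ratio was -0.96 for L2 over L1 and -0.07 for the male over the female pupa. The fold shares of L1 and L2 thus include a shift of the whole distribution. Reads summed over genes came to 92.4% of the library total in L1 and 154% in L2, and the part of this scale in the shares was not tested. Between the pupae the middle of the distribution was narrower than between egg and L1 and its ends were longer, with its highest 1% beyond 7.72 on the log2 scale.

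The grading of the ratio was described in tiers on either side. In 3447 members (36.5%) the higher of the egg and L1 values was less than 25% above the lower, and these are called the genes within 25%. On the higher side, 709 genes lay between 25% and 1.5-fold, 729 between 1.5-fold and 2-fold, 216 between 2-fold and 3-fold and 5 between 3-fold and 4-fold. On the lower side, the corresponding numbers were 1572, 1823, 894 and 48. The 221 genes from 2-fold to under 4-fold higher in L1 are called the higher end, and the 942 genes from 2-fold to under 4-fold lower are called the lower end. Genes 2-fold or more higher made up 2.34% of members and genes 2-fold or more lower 10.0%. At 1.5-fold these shares were 10.1% and 29.3%. The ends have no natural border. The genes just inside and just outside the higher end had ratios of 2.0003 and 1.99943, and those at the lower end 0.499916 and 0.500017. For membership, a gene at 4.23 RPKM in the egg and 5.001 in L1 was just inside, and one at 4.02 and 4.99 just outside.

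The imbalance between the ends depended on how the libraries were scaled to each other. As deposited, 18.9% of the genes 2-fold or more apart were higher in L1. The RPKM sum of all genes was 943551 in the egg and 1190740 in L1. The 10 genes with the largest gain rose by an amount equal to 44.8% of this net difference. The losses of other genes are subtracted in it. With L1 scaled to the same sum, a shift of -0.34 in log2, 16 genes were 2-fold or more higher and 2337 lower, so that 0.68% were higher. With the same upper quartile, a shift of 0.31, the numbers were 761 and 249 (75.3% higher), and with the median ratio of members set to 1, a shift of 0.26, they were 640 and 313 (67.2% higher). Which side held more genes was therefore set by the scaling, whereas the order of the genes along the ratio does not depend on it. Genes 4-fold or more apart numbered between 6 and 31 under these scalings.

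Genes at the higher end were mostly expressed in larvae, with little expression in pupae and adults. Their median RPKM was 28.1 in the egg and 60.4 in L1, the values by which they were chosen. In the libraries that did not enter the choice, it was 31.2 in L2, 23.0 in L3, 11.4 in L4 and 31.7 in L5. It then stood at 0.941 and 0.974 in female and male pupae, and at 0.694 and 1.69 in female and male adults. Over all members the 8 medians ran from 8.03 in L2 to 20.8 in the female adult, so the higher end lay above the members' median in each of L2 to L5 and far below it in pupae and adults. An RPKM below 1 was found in 112 of the 221 genes (50.7%) in female and 111 (50.2%) in male pupae, and in 127 (57.5%) in female and 100 (45.2%) in male adults. Among all members the shares in these 4 libraries were between 7.22% and 8.12%. In 73 genes of the higher end (33.0%) all 4 pupal and adult libraries were below 1 RPKM, against 307 of all members (3.25%).

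By contrast, genes at the lower end were lowest in L5 and highest in the female adult. The medians that chose them were 15.9 RPKM in the egg and 6.91 in L1. Elsewhere the median was 4.39 in L2, 4.86 in L3, 4.46 in L4 and 2.75 in L5. In the pupae it was 13.1 for the female and 12.2 for the male, and in the adults 26.5 for the female and 6.64 for the male. The median in the female adult was thus above that in the egg itself. Over all members the female adult median, 20.8, was also the highest of the 8 other libraries. The lower end lay above the members' median in that library only. The members' medians were 17.4 and 16.1 in female and male pupae, 13.6 in the male adult and between 8.03 and 10.7 in L2 to L5. The female adult exceeded the egg in 790 of the 942 genes (83.9%), against 4581 of all members (48.5%). This count uses the egg values of the choice and is given as a description. Values below 1 RPKM were found in 210 genes (22.3%) in L5, against 7.59% of all members, but in only 33 (3.50%) in the female adult.

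**Figure D2:**
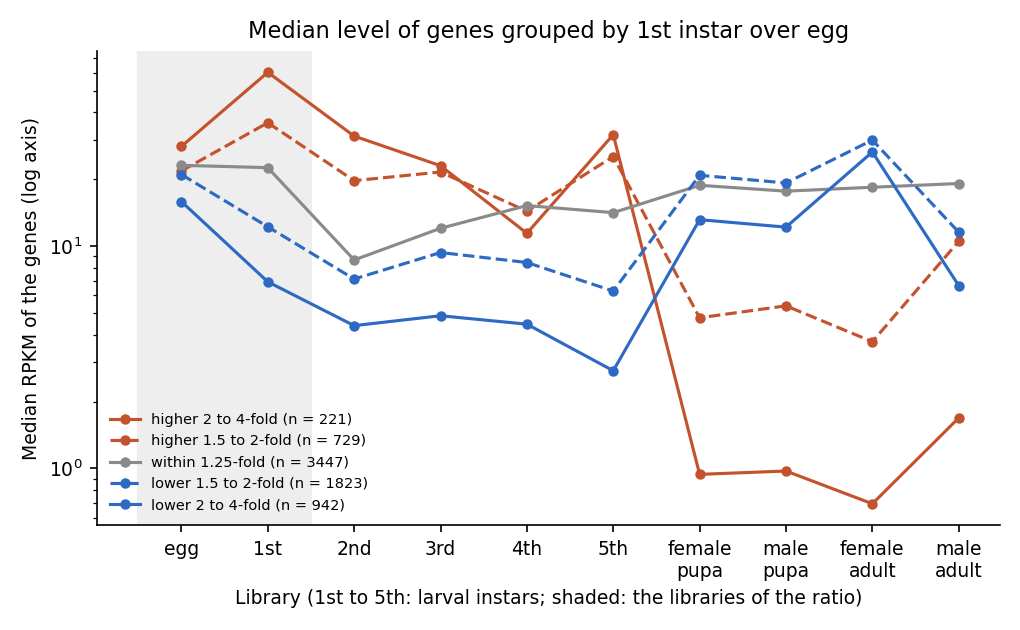
Median RPKM (log axis) in each of the 10 libraries for genes grouped by the ratio of L1 (1st) to egg, whose own libraries are shaded. The higher-end line drops from 31.7 in L5 to 0.941 in the female pupa, the lower-end line peaks at 26.5 in the female adult, and the 1.5-fold to 2-fold groups follow the ends in a weaker form.

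The library with the highest value among the other 8 separated the ends. It was a larval instar for 167 of 221 genes (75.6%) at the higher end, for 36 of 942 (3.82%) at the lower end and for 2502 (26.5%) of all members. Within the higher end it was L2 for 65 genes (29.4%), L5 for 56 (25.3%), L3 for 31 (14.0%) and L4 for 15 (6.79%), whereas the shares of all members were 7.63%, 6.52%, 5.17% and 7.15%. The larval share thus lay above that of all members through L2, L3 and L5 and not through L4. It was the female adult for 722 genes (76.6%) of the lower end, for 4 genes (1.81%) of the higher end and for 3268 (34.6%) of all members. Pupae held the maximum for 132 genes (14.0%) of the lower end, compared with 2232 (23.6%) of all members, so that pupal maxima were less frequent there than among members. The male adult held it for 32 genes (14.5%) of the higher end, near the 15.3% of all members. With 1000 reads or more in the pair, the larval share of the higher end was 84.9% (124 of 146). The female adult share of the lower end was then 78.4% (388 of 495). Shares over all members with that many reads are not given here. The larval share of the lower end rested on the female adult: without that library it was 11.6%, beside 31.8% of all members. It was 2.23% without L2 and 5.73% without the male adult.

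**Figure D3:**
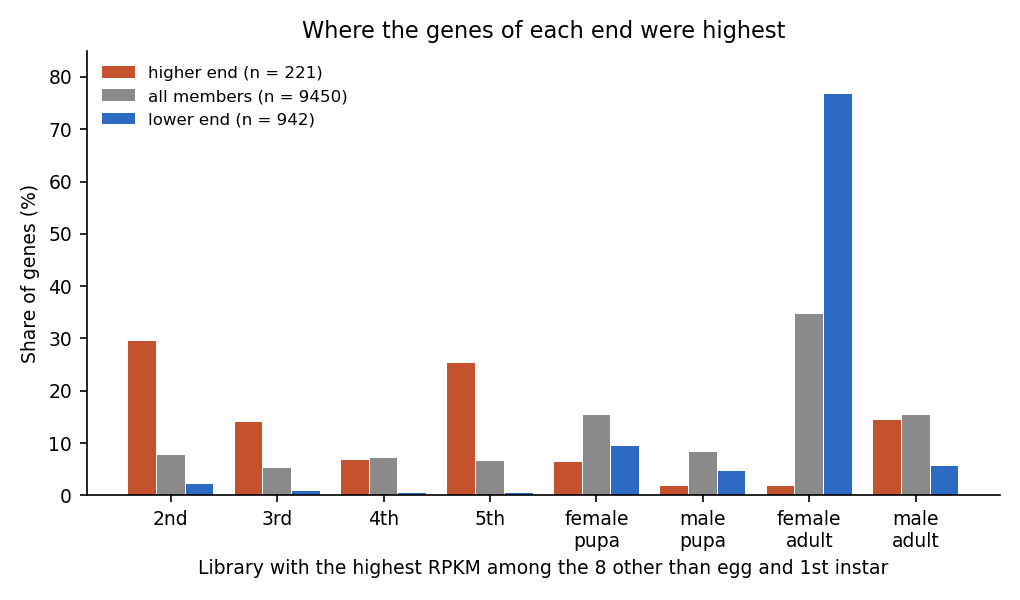
Share of genes, in percent, by the library with the highest RPKM among the 8 other than egg and L1, for the higher end (221 genes), all members (9450) and the lower end (942). The higher end has its tallest bars at the 2nd and 5th instar, and 76.6% of the lower end falls to the female adult.

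The pattern was graded rather than confined to the ends. The share of genes highest in a larval instar was 30.1% among members within 25%. On the higher side it was 56.6% from 25% to 1.5-fold, 68.6% from 1.5-fold to 2-fold and 76.9% from 2-fold to 3-fold, and on the lower side 12.7%, 8.72%, 3.80% and, from 3-fold to 4-fold, 4.17% (2 of 48 genes). The 5 genes from 3-fold to 4-fold higher did not continue the series, with 1 of 5 highest in a larval instar and 3 in the male adult, but their median was only 63 reads in the pair. The female adult share went the other way. It was 21.4% within 25%, and 40.2%, 60.2%, 76.1% and 87.5% (42 of 48 genes) over the 4 tiers of increasing distance on the lower side. Over the first 3 tiers of the higher side it was 5.92%, 3.84% and 1.85%. Of the 7 genes 4-fold or more lower in L1, 5 were highest in the female adult.

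Read in the other direction, a gene's level in the 8 other libraries went with its ratio of L1 to egg. For each gene the mean log2(RPKM + 1) of pupae and adults was subtracted from that of L2 to L5. Genes with a difference from -2 to -1 (3075) had a median log2 ratio of L1 to egg of -0.58, and 12.2% of them were higher in L1. The median was -0.26 from -1 to 0, 0.08 from 0 to 1, 0.38 from 1 to 2, and 0.58 in both the bin from 2 to 3 and that from 3 to 4. Above 4 (244 genes), it was 0.85, 95.5% of genes were higher in L1, and 75 genes (30.7%) belonged to the higher end against 1 to the lower. The trend did not extend to the most pupal and adult genes, whose medians were -0.49 from -3 to -2 (624 genes) and -0.39 below -3 (90 genes). Spearman's rho between the difference and the ratio was 0.53 across the 9450 genes. Genes of 1 library share its depth and composition and are not replicates. The mean of L2 to L5 lay above that of pupae and adults in 78.3% of the higher end, 3.82% of the lower end and 25.0% of all members.

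**Figure D4:**
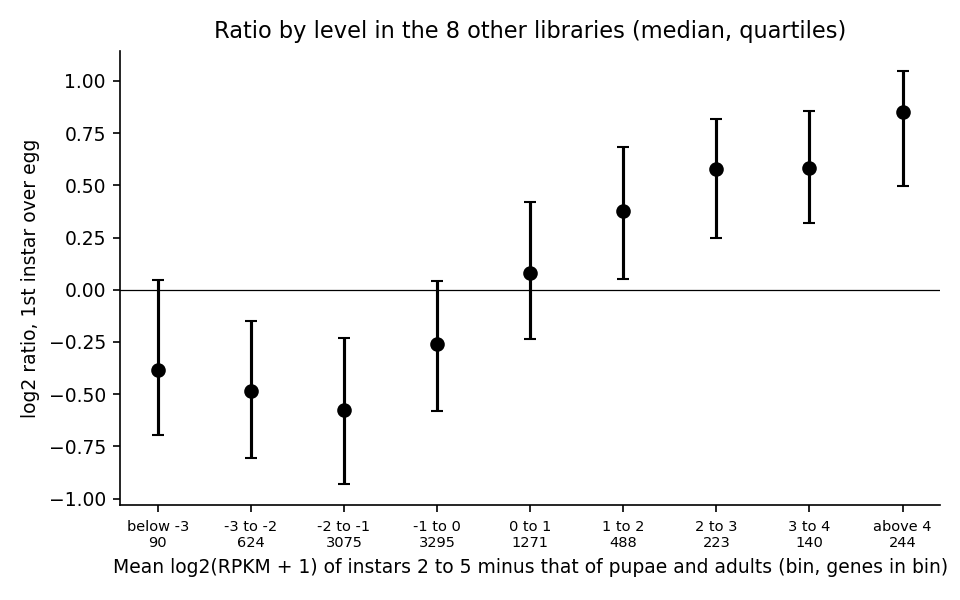
The log2 ratio of L1 (1st instar) to egg for genes binned by the mean log2(RPKM + 1) of L2 to L5 minus that of pupae and adults, with the number of genes under each bin. Points are medians and bars the quartiles over genes: the median moves from -0.58 in the bin from -2 to -1 to 0.85 above 4.

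The 8 libraries did not contribute alike. Members highest in L5 had a median log2 ratio of L1 to egg of 0.41, with quartiles of 0.06 and 0.74, and those highest in L3, L2 and L4 had medians of 0.29, 0.20 and 0.07. Members highest in the female adult had the lowest median, -0.65, with quartiles of -0.96 and -0.32, and 8.02% of them were higher in L1. Genes highest in pupae had medians of -0.35 (female) and -0.26 (male), and those highest in the male adult -0.06. The lower end took up 22.1% of the genes highest in the female adult and 0.592% of those highest in L4. The adults of the different sexes stood apart in this. Across members, Spearman's rho between the ratio and a gene's level relative to its own mean over the 8 libraries was -0.592 with the female adult, whereas with the male adult it was 0.0924. For L5 it was 0.597 and for L2 0.201.

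The female bias of the lower end was found in adults and not in pupae. At the lower end 730 of 942 genes (77.5%) had a female adult value at least 2-fold above the male one, against 36.9% of all members and 17.6% of the higher end. In pupae, 51 genes (5.41%) of the lower end had a female value at least 2-fold above the male one, beside 5.38% of all members. The female adult was at least 2-fold above the female pupa in 46.2% of the lower end and 23.9% of all members. At the higher end the adult difference was reversed, with 122 genes (55.2%) at least 2-fold higher in the male adult, against 22.6% of all members and 5.52% of the lower end. Many of these values were low: both adults were below 1 RPKM in 38 of the 122 genes. Over the 130 genes of the higher end at 1 RPKM or more in either adult, 84 (64.6%) were at least 2-fold higher in the male, against 21.6% of such members. In pupae 39 genes of the higher end (17.6%) were at least 2-fold higher in the female, and in 20 of these both pupae were below 1 RPKM. Each sex of each stage was a single animal.

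Not all genes of an end were alike. Within the higher end, the 65 genes highest in L2 had medians of 80.3 RPKM in the egg, 167 in L1 and 219 in L2, then 40.9 in L3, 11.4 in L4 and 48.4 in L5, and at most 0.503 in pupae and adults. The 56 genes highest in L5 had 35.5 in the egg, 72.7 in L1, between 22.4 and 32.8 in L2 to L4, and 130 in L5. The 31 genes highest in L3 had 45.4, 97.4 and 137 in egg, L1 and L2, 461 in L3 and 0.155 and 0.374 in female and male adults. These 3 groups shared a low median in L4 between higher neighbours. The grouping itself put L5 above L4 in the genes highest in L5, and L3 above L4 in those highest in L3. In 87 genes of the higher end (39.4%) L4 was more than 2-fold below both L3 and L5, compared with 9.29% of all members and 2.65% of the lower end. The reverse, L4 more than 2-fold above both, was found in 9.05% of the higher end and 8.18% of all members. The 32 genes highest in the male adult formed a low-level group, with medians of 5.66 in the egg, 13.9 in L1, between 2.13 and 3.01 in L2 to L5, and 17.2 in the male adult. The 14 genes highest in the female pupa had 15.8 in the egg, 34.0 in L1, 1.58 in L2 and 53.1 in the female pupa.

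The lower end was more uniform. Its 722 genes highest in the female adult had medians of 16.3 RPKM in the egg, 7.09 in L1, between 2.47 and 4.86 in L2 to L5, 12.9 and 12.2 in female and male pupae, 30.5 in the female adult and 6.14 in its male counterpart. The 88 genes highest in the female pupa had medians of 12.4 in the egg, 5.98 in L1, 24.2 and 18.7 in female and male pupae and 15.5 in the female adult. A smaller group of 52 genes was highest in the male adult, with 28.7 in the egg, 12.4 in L1, between 2.16 and 3.40 in L2 to L5 and 32.5 in the male adult. The 21 genes highest in L2 had 23.5 in the egg, 9.94 in L1 and 15.4 in L2.

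Most genes of an end did not have their peak of expression in the egg or L1. L1 was the highest of all 10 libraries for 59 genes of the higher end (26.7%), against 8.25% of all members. The egg was highest for 102 genes of the lower end (10.8%), against 14.7% of all members. In 141 genes of the higher end (63.8%) some later instar was above L1, as it was in 4868 members (51.5%). These counts use the egg or L1 values that chose the ends and are given as a description. In L2 to L5 the reads summed over genes came to between 124% and 154% of the library total, against 79.2% in the egg and 92.4% in L1, so that levels in L2 to L5 stand on another scale than those in the egg and L1. Shares that set a larval instar against another stage move with it. Under equal RPKM sums, the share of genes highest in a larval instar was 64.7% of the higher end, 1.70% of the lower end and 13.1% of all members, and under equal upper quartiles it was 78.7%, 14.6% and 47.5%. Under both, the higher end lay above all members and the lower end below them.

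Members were also grouped by where they fell below 1 RPKM among the 8 other libraries. There were 69 members below 1 RPKM in all 8 other libraries, with values up to 2567 RPKM in the egg. They split almost evenly, 36 higher and 33 lower in L1. In 29 (42.0%) L1 was 1.5-fold or more higher, against 10.1% of all members. In 22 (31.9%) it was 1.5-fold or more lower, near the 29.3% of all members. Another 11 (15.9%) were within 25%, compared with 36.5% of all members. The higher end held 9 of the 69 (13.0%, against 2.34% of all members) and the lower end 11 (15.9%, against 9.97% of all members). Another 238 members were below 1 RPKM in pupae and adults and reached 1 in some later instar. Of these, 202 were higher in L1, their median log2 ratio was 0.75, and 64 (26.9%) belonged to the higher end. The 168 members below 1 in L2 to L5 that reached 1 in a pupa or adult leaned the other way. Of them, 141 were lower in L1, their median was -0.59, and 47 (28.0%) were at the lower end. Of all 9450 members, 3104 were higher in L1 and 6346 (67.2%) lower, with a median of -0.26. Most members thus lay on the lower side already. The 7342 members at 1 RPKM or more in all 8 libraries had a median of -0.30, and 0.872% of them belonged to the higher end and 9.21% to the lower.

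The ends also differed in level and in gene length. The egg values of the higher end ranged from 1.32 to 14821 RPKM and its L1 values from 5.03 to 33905. Its genes made up 10.6% of the RPKM sum of the egg and 18.4% of that of L1. The lower end, with more than 4 times as many genes, held 3.15% and 1.07%, and its highest egg value was 1405 RPKM. These are the values by which the ends were chosen. The rise of the higher end's share and the fall of the lower end's were thus built into the choice. When members were split into 4 equal groups by the geometric mean of egg and L1, the one with the lowest level (1.85 to 9.50) contributed 56 genes to the higher end and 433 to the lower, and that with the highest level (43.1 to 41037) 108 and 56. The median log2 ratio was -0.38 in the former and -0.01 in the latter. This split also used the egg and L1 values. At the border of membership, 768 members reached an RPKM of 5 in the egg only and 263 in L1 only. Recovered gene length had a median of 741 bp (quartiles 480 and 1101) at the higher end, 1246.5 bp (720 and 1919) at the lower end and 1060.5 bp (603 and 1734) over all members. The part of length and level in these results was not tested.

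Genes of an end were often neighbours by identifier number. Where the gene with the next number was also a member, it belonged to the higher end for 36 of 152 higher-end genes (23.7%), whereas 140 of 6561 members (2.13%) were followed by a higher-end gene. For the lower end the values were 148 of 681 (21.7%) and 696 of 6561 (10.6%). The longest runs were 7 genes at the higher end and 5 at the lower. No annotation used here ties these numbers to positions in the genome. Near-identical copies, genes of equal length with nearly equal reads in every library, numbered 15 among members, of which 3 were at the higher end and none at the lower. Their reads cannot be assigned to one copy with certainty.

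Individual genes show the range within the ends. Among members with 1000 reads or more in the pair, RR46_04691 (696 bp) had the highest ratio. It was at 23.9 RPKM in the egg (581 reads, 95% exact counting interval 22.0 to 25.9) and 68.9 in L1 (1651 reads, 65.6 to 72.3), 2.89-fold higher with a counting interval of 2.62 to 3.18. It reached 128 RPKM in L2 and then stood at 1.53 in L3, 0.928 in L4 and 8.17 in L5. It had 0 reads in either pupa and in the adult female, and 0.184 RPKM in the adult male. This gene was thus a gene of the first instars, with a second, smaller peak in L5. RR46_06414 (252 bp) was next, with 905 RPKM in the egg and 2444 in L1, 2.70-fold higher (2.63 to 2.77). Its values were 91687 in L2, 6797 in L3, 755 in L4 and 4626 in L5, and it was at 0.127 or below in each pupal and adult library. L1 was therefore far below L2 for this gene, and L4 lay below both its neighbours.

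At the other end RR46_07632 (4413 bp) had the lowest ratio. It was at 12.1 RPKM in the egg (1861 reads, 11.5 to 12.6) and 3.30 in L1 (501 reads, 3.02 to 3.60), 3.66-fold lower with a counting interval of 3.31 to 4.05. It was at 52.9 RPKM in the female adult, whereas the other 7 libraries lay between 0.0388 in L5 and 0.767 in the male pupa. Apart from L1, the gene was thus an egg and adult female gene in these libraries. RR46_02313 (3117 bp) followed, with 10.5 RPKM in the egg and 2.99 in L1, 3.49-fold lower (3.08 to 3.97). It was highest in the female adult at 28.3, with 14.0 in the female and 8.43 in the male pupa, 2.07 in the male adult, 4.28 in L2, 3.90 in L3, 1.71 in L4 and 0.782 in L5. Both genes shared the maximum in the female adult and had their lowest value in L5. For RR46_07632 that value rested on 4 reads, and its counting interval (0.0106 to 0.0993 RPKM) overlapped those of L2 and L3.

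The largest shifts in RPKM came from abundant genes with modest ratios. Among members past 1.5-fold, the gene with the largest gain (240 bp) was at 31388 RPKM in the egg and 53653 in L1, a gain of 22265 at 1.71-fold (1.70 to 1.72). It was at 376114 in L2, 216434 in L3, 171654 in L4 and 165921 in L5, and later between 3282 in the adult female and 35263 in the male pupa. The next (1101 bp) went from 14821 to 33905, 2.29-fold higher (2.28 to 2.29), with 44462 to 87012 in L2 to L5 and 581 to 7182 in pupae and adults. In both genes L2 to L5 lay above the egg, L1, pupae and adults. The former, which is not in the higher end, remained abundant in pupae, where its male value exceeded that of the egg. The largest loss was that of a gene of 558 bp at 8926 RPKM in the egg and 5587 in L1, 1.60-fold lower (1.59 to 1.61), which was at 7981 in the male adult and between 104 and 661 in the remaining 7 libraries. The next (534 bp) was at 5579 and 2876, 1.94-fold lower (1.92 to 1.96). Its 8 other values lay between 0.0533 (adult female) and 2.64 (adult male), so that high levels of this gene were found in the egg and L1 only. None of these 8 genes had a near-identical copy.

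**Figure D5:**
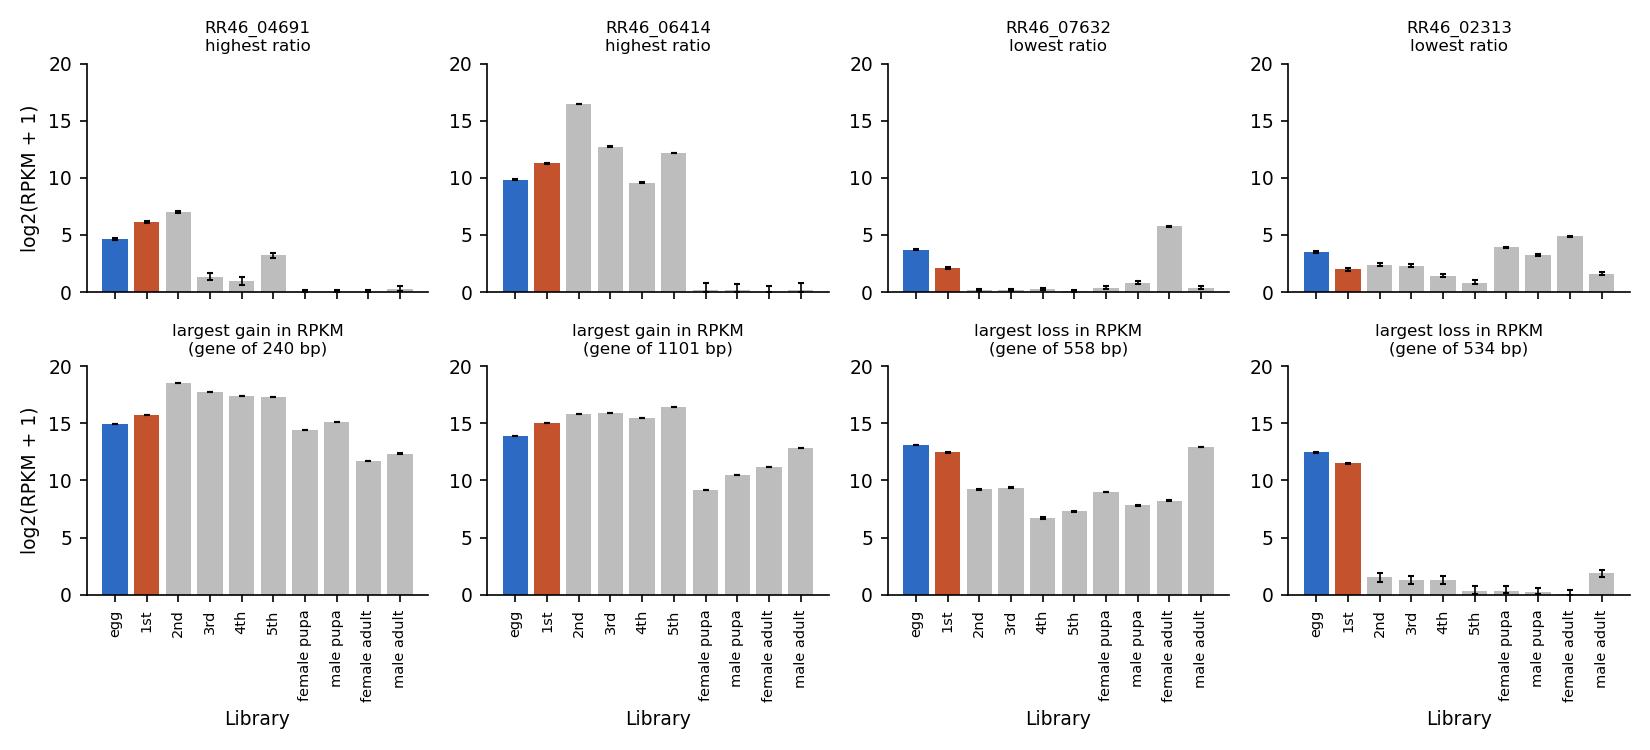
Levels of 8 genes in the 10 libraries as log2(RPKM + 1), with egg in blue, L1 (1st) in orange and the other libraries in grey. Bars are single libraries and lines the 95% counting intervals. The upper row has the genes with the highest and lowest ratios among those with 1000 reads or more in the pair, and the lower row those with the largest gain and loss in RPKM.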

How the data were processed

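RNA of whole bodies was sequenced by the authors as paired-end reads from poly-A RNA primed with random hexamers (Illumina HiSeq), and mapped to their *P. xuthus* assembly. The submitters' processing notes name TopHat 1.0.12 and 1.4.1 without their roles. The counting tool, strand and treatment of reads with several hits are not given in the sources used here. The deposited table holds RPKM as computed by the authors, in 1 file of 15123 genes and 10 libraries.

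Each RPKM value is a whole read number over a gene length and a library total. Totals, lengths and reads were solved from these steps, and 100% of genes came out whole (relative tolerance 1e-09). The scale was set by taking the total's divisor as 3, and lengths and reads are the smallest the values allow. They served for depth and counting error (Clopper-Pearson, 95%) only, and no count model was fitted. Where the mates of a pair were counted apart, these intervals would be too narrow. The recovery was tested on simulated data in which every gene length was a multiple of 3. That test could therefore not check the divisor of 3. The recovered library totals ranged from 23378656 in L5 to 35161755 in the male pupa. In L2 to L5 they were smaller than the reads summed over genes, and the reason was not tested.

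The ratio was L1 over egg RPKM without a pseudocount, with reads below 3 set to 3. Members had an RPKM of 5 or more in either library, and the ends a ratio of 2 to under 4. With 1 library per stage no test was run. Genes were chosen among members with 1000 reads or more in the pair: the 2 with the highest and the 2 with the lowest ratio, and, past 1.5-fold, the 2 with the largest gain and the 2 with the largest loss in RPKM. The members, groups and rules were chosen with earlier results of these data known. Alternatives were scalings (sum, upper quartile, median), thresholds, pseudocounts, a filter on reads, and leaving out each other library. Python 3.11.15, numpy 2.4.6, pandas 2.3.3, scipy 1.17.1 and matplotlib 3.10.9 were used.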

Additional observations from a re-analysis of the deposited data

How the results depend on the processing

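Of 118 alternative values for 12 results, 70 stayed within limits and 48 moved, of which 1 changed sign. The limit was a factor of 1.5 for counts and for the interquartile range, and a 95% interval over genes for medians and shares. That interval treats genes as independent, which they are not, and depends on the number of genes in a group. It does not measure variation between animals. For moves other than those built into a scaling, threshold or filter, the cause was not tested. Genes 2-fold or more higher in L1 (221) numbered 395 with a minimum RPKM of 1, 146 with 1000 reads or more, and 109 where the counting interval had to lie past 2-fold. Those 2-fold or more lower (949) numbered 495 with 1000 reads and 412 by the interval. Under equal sums, equal upper quartiles and a median ratio of 1, the higher counts were 16, 761 and 640 and the lower 2337, 249 and 313. At 1.5-fold, they were 310, 1915 and 1659 higher and 4814, 1344 and 1490 lower, with 1665 lower at 1000 reads. The median log2 ratio was -0.61 under equal sums, 0.060 under equal upper quartiles (the change of sign), -0.23 with a minimum RPKM of 1 and also with 1000 reads, and -0.25 with a pseudocount of 1.

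The share of the higher end highest in a larval instar was 64.7% under equal sums and 84.9% with 1000 reads, and ranged from 68.8% (without L2) to 82.4% (without the male adult) when each other library was left out. The share with a larval mean above the pupal and adult mean was 69.2% under equal sums (13.2% of all members), 86.4% under equal upper quartiles (46.6% of all members, against 25.0% as deposited) and 88.4% with 1000 reads. For the lower end these shares were 1.70% and 1.27% under equal sums, 14.6% and 11.7% under equal upper quartiles, and 7.05% and 5.64% at 1.5-fold. The former was 2.0% in the 100 most extreme genes. Leaving out each other library gave 2.23% (without L2) to 11.6% (without the female adult) for the former and 2.76% (without L3) to 5.84% (without the female adult) for the latter.

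Alternatives for the share highest in the female adult were added after the data had been seen, as was keeping near-identical copies once. For the lower end it was 84.9% under equal sums (47.6% of all members), 60.3% under equal upper quartiles (20.9% of all members), 65.8% at 1.5-fold and 82.0% in the 100 most extreme genes. For the higher end it was 4.98% under equal sums and 0.685% with 1000 reads. No paired analysis was possible because each stage had 1 library.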
